A study of Homo sapiens with 7 samples.

Results

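The HOX cluster genes are the homeobox genes of the HOXA, HOXB, HOXC and HOXD clusters. Members were taken by gene symbol alone, as every gene whose only platform symbol was HOX, a cluster letter and a number. This gave 29 genes out of 18646 genes with a single symbol. The HOXA cluster was represented by 1 gene, HOXA2, the HOXB cluster by 10, the HOXC cluster by 9 and the HOXD cluster by 9. They were read by 38 probes, and 8 genes had more than 1 probe. Each value is a log2 ratio per array, averaged over the probes of a gene, so a ratio of 1 is a 2-fold difference.

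HOX proteins are transcription factors that bind DNA through a homeodomain and tell cells of the embryo where they lie along the head to tail axis. The genes of a cluster sit side by side, and their order on the chromosome follows the order of their expression along that axis. Low paralog numbers are used towards the head (anterior) and high numbers towards the tail (posterior), the hindgut included. Outside their domains the clusters are held silent by Polycomb proteins. In tumours their CpG-rich promoters are often found methylated, and methylation is copied at each cell division by DNMT1, which UHRF1 brings to newly made DNA.

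The RNA came from 4 established human colorectal cancer cell lines, DLD1, HT29, RKO and HCT116, on 7 arrays that each compared a knockdown with a non-silencing control of the same line. DLD1, HT29 and RKO cells carried 1 of 2 short hairpin RNAs (shRNA) against DNMT1, number 49 or number 51, with 1 array per line and shRNA. HCT116 cells carried an shRNA against UHRF1 with a labelled knockdown efficiency of 60%, on 1 array. The title of this array also carries what looks like a day label, which the DNMT1 titles lack. Whether the times after knockdown were alike is not stated. With shRNA 49 the knockdown RNA was labelled with Cy3, otherwise with Cy5, so the DNMT1 shRNA and the dye orientation are 1 split. No 2 DNMT1 arrays repeat the same line and shRNA. The p-values therefore reflect array-to-array spread, in which differences between lines and shRNAs can be mixed with technical spread. The labels name no separate cultures for any 1 line and shRNA, and whether the arrays of a line shared a control RNA is not stated.

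Which dye is the numerator is not given in the sources used here. DNMT1 lay between -3.27 and -0.92 on the 6 DNMT1 arrays, so the ratios were read as knockdown over control, a likely direction that rests on this gene. For the UHRF1 array this reading is less certain, since its 4 UHRF1 probes disagree, with a mean of -1.16. They stood at -3.10, -2.06, -0.18 and 0.68. The value of 0.68 is also held exactly by other probes of that array, and the values below 0 are not. The log base is likewise read from the range of the values. Correlations between arrays over all probes lay between -0.029 and 0.26. Among DNMT1 arrays they were 0.19 to 0.26 for the same shRNA in different lines. Arrays of the same line with different shRNAs gave 0.15 to 0.25, and arrays that differed in both gave 0.026 to 0.12. The ratios carry no levels, so whether a gene or a cell type marker was expressed at all cannot be read from them, and fewer cells with an RNA cannot be told apart from less of it per cell.

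Many HOX probes hold a ratio that other probes of the same array hold exactly, here called a shared ratio. On the DNMT1 arrays 28.6% to 39.5% of the HOX probes with a value were shared, against 34% to 37.5% of all probes, and on the UHRF1 array 62.9% against 44%. Over all probes of the array, a shared ratio was held by 2 to 63 probes. HOXC5 and HOXC6, for example, both stand at -1.10 in RKO with shRNA 51, a ratio held by 7 probes. Why ratios are shared was not tested. A ratio of its own, from at least 1 probe, on all 6 DNMT1 arrays was found for 10 of the 29 genes, 8 of them HOXB genes and the other two HOXC9 and HOXC10, and no HOXD gene had one. Arrays also lacked values: 9 HOX genes were blank in HT29 with shRNA 51, 4 in DLD1 and 3 in RKO with shRNA 51, 2 on the UHRF1 array and none with shRNA 49.

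**Figure D1:**
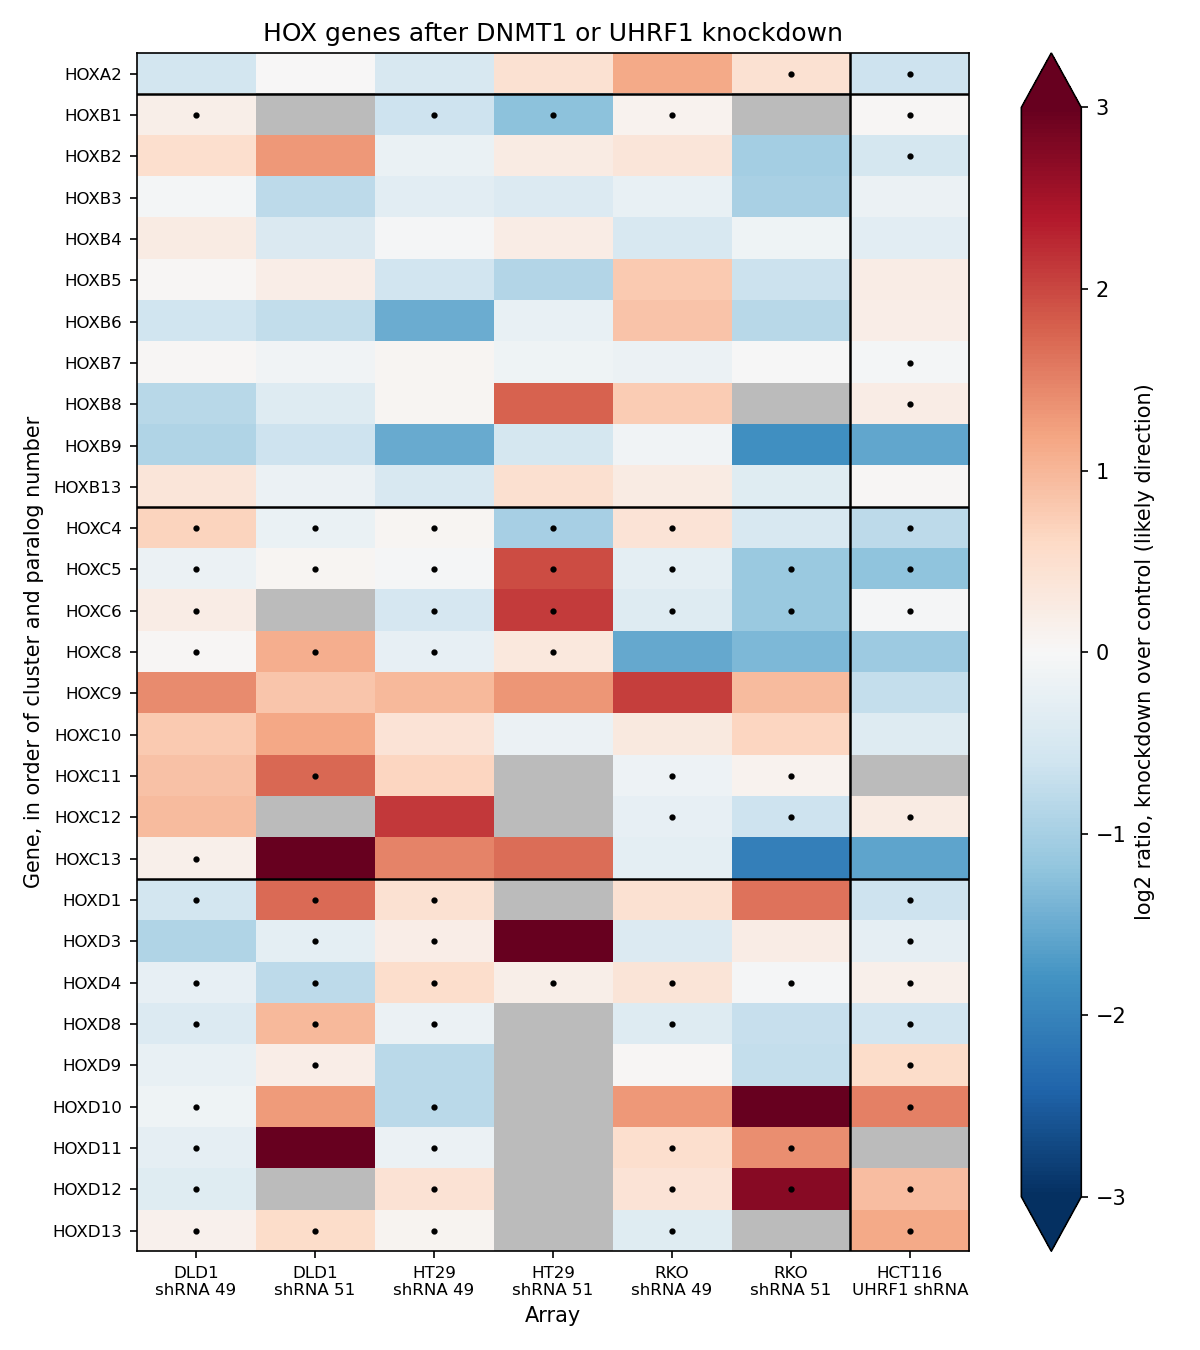
Log2 ratios of knockdown over control (colour, limited to -3 to 3) for 29 HOX genes (rows, by cluster and paralog number) on 7 arrays (columns). A dot marks a gene whose probes with a value all hold shared ratios and grey marks a blank. HOXC9 is red on all 6 DNMT1 arrays, HOXB9 and HOXB3 are blue on all 7 arrays, and most HOXD cells carry a dot.

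The first comparison asks which HOX genes differ from control after DNMT1 depletion, whatever the line. No HOX gene passed the test over all lines. HOXC9 came closest on the upper side, with a fitted mean 2.39-fold above control, and HOXB9 and HOXB3 lay below control on every array without passing. The HOX genes as a whole were spread around 0, with 14 of 25 tested above it and a median log2 ratio of 0.071, where all 17623 tested genes had 55.2% above 0 and a median of 0.034.

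Genes were tested with limma, fitting the shRNA as a term, treating the line as a random effect and applying Benjamini-Hochberg adjustment across 17623 genes. A gene needed a value on 5 of the 6 DNMT1 arrays. HOXB1, HOXC12, HOXD12 and HOXD13 had 4 and were not tested. At an adjusted p under 0.05, 0 of the 25 HOX genes were called, where 0.397% of all genes were (70 genes, 67 of them higher and 3 lower). At an unadjusted p under 0.05 there were 7 HOX genes, 5 higher and 2 lower, against 2005 of all genes, or 11.4%. Neighbouring HOX genes are not independent of each other, so these shares are a description. With the standard errors (SE) of 0.13 to 0.67 found for HOX genes, a gene that did not pass is not shown to be the same as in control.

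**Figure D2:**
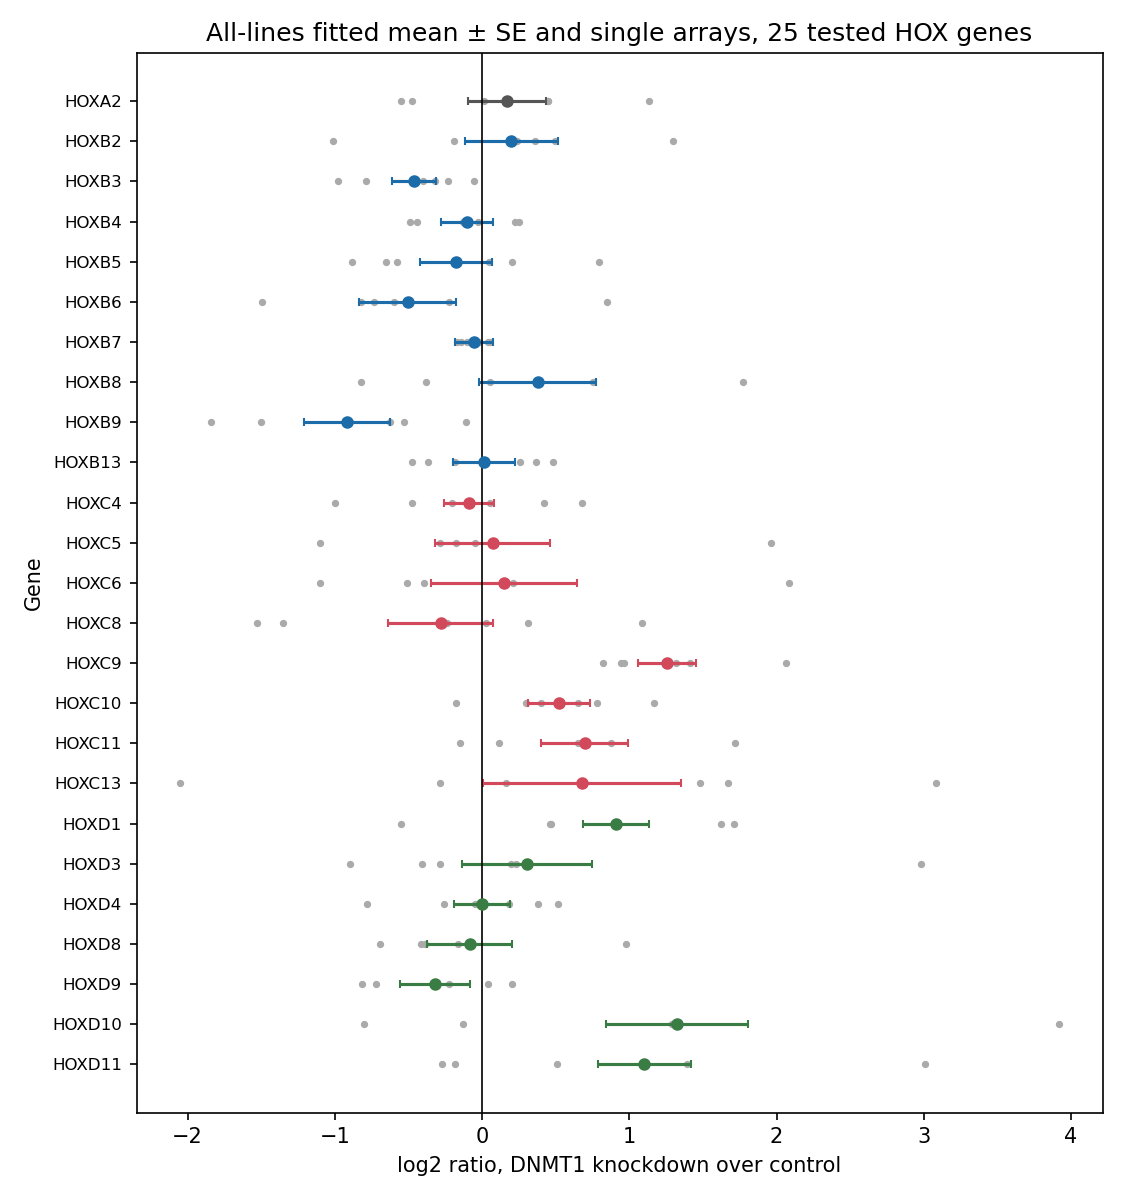
Fitted all-lines mean log2 ratio with its SE (coloured point and bar, by cluster) and the single DNMT1 arrays (grey points) for the 25 tested HOX genes. HOXC9 sits at 1.25 with all 6 arrays above 0, while HOXC13, HOXD3 and HOXD10 have wide spreads.

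HOXC9, a posterior gene that in the mouse sets the identity of thoracic motor neurons, had a ratio of its own on all 6 arrays. It stood at 1.41 in DLD1 with shRNA 49 and 0.82 with shRNA 51. In the same order HT29 gave 0.97 and 1.31, and RKO gave 2.07 and 0.95. All 6 values lay above 0, and the 2 shRNAs overlapped. The all-lines mean was 1.25 ± 0.20 (SE, n = 6). Its limma adjusted p was 0.0743, the 100th smallest p among all tested genes. With shared ratios left out, a setting in which 11485 genes were tested in place of 17623, the adjusted p was 0.0456 and the mean was again 1.25. Over the other 13 alternatives the adjusted p lay between 0.0597 and 0.417 and the mean between 1.03 and 1.57. On the UHRF1 array HOXC9 stood at -0.72.

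Of the 17 HOX genes with a value on all 6 DNMT1 arrays, 3 had 1 sign on all 6, where 6.88% of all genes did. HOXC9 lay above 0 (3.81% of all genes), and HOXB3 and HOXB9 lay below it (3.06%). Both HOXB3 and HOXB9 were also below 0 on the UHRF1 array, making 2 of 17 below 0 on all 7 arrays, where 1.66% of all genes were. This count rests on the less certain direction of the UHRF1 array. With its sign turned it would be 0 of 17, where 1.38% of all genes would be below 0 on all 7. The UHRF1 array value of HOXB3, -0.18, is a mean of 2 probes of opposite sign, at -0.49 and 0.13.

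Of the other posterior HOXC genes, HOXC11, HOXC12 and HOXC13 had all their DLD1 and HT29 values above all their RKO values, and HOXC10 did not. HOXC10, a gene of the lumbar region and hindlimb in the mouse, stood at 0.78 and 1.17 in DLD1, 0.40 and -0.18 in HT29, and for RKO 0.30 and 0.65. Here and in every pair of values the shRNA 49 array comes first. Only HT29 with shRNA 51 was below 0, and there just 1 of its 2 probes had a value. Its mean was 0.52 ± 0.21 (SE, n = 6, adjusted p = 0.421 by limma), but its probes disagreed by up to 1.81, in DLD1 with shRNA 51, so its size is uncertain. In DLD1 the higher probe held shared ratios, 1.10 and 2.08, and the other probe ratios of its own, 0.46 and 0.26. With shared ratios left out the HOXC10 mean was 0.38.

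HOXC11 stood at 0.88 and 1.72 in DLD1, at 0.65 in HT29 with shRNA 49 and at -0.15 and 0.12 in RKO, and was blank in HT29 with shRNA 51. The fitted mean was 0.70 ± 0.30 (SE, n = 5, adjusted p = 0.458 by limma), and 3 of the 5 values were shared ratios. It was 0.32 without DLD1, shRNA 51, and 1.04 without RKO, shRNA 51. HOXC12, which was not tested, stood at 0.95 in DLD1 and 2.11 in HT29 with shRNA 49, both ratios of its own, and at -0.25 and -0.63 in RKO, both shared.

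HOXC13, a regulator of hair and nail keratins, had the widest gap between lines. It stood at 0.16 and 3.09 in DLD1, at 1.48 and 1.67 in HT29, and at -0.29 and -2.05 in RKO, and the value of 0.16 is a shared ratio. All 4 values of DLD1 and HT29 lay above 0 and both of RKO below it. The line means were 1.62, 1.57 and -1.17, each ± 0.79 (SE, n = 2), and the differences of DLD1 and of HT29 from RKO were 2.79 and 2.74, each ± 1.12 (SE). With adjusted p of 0.726 and 0.696 by limma, the differences did not hold up against the spread between arrays. For each line mean given here, the SE rests on a spread shared over the lines, after the shRNA term. It does not measure the gap between the arrays of that line.

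**Figure D3:**
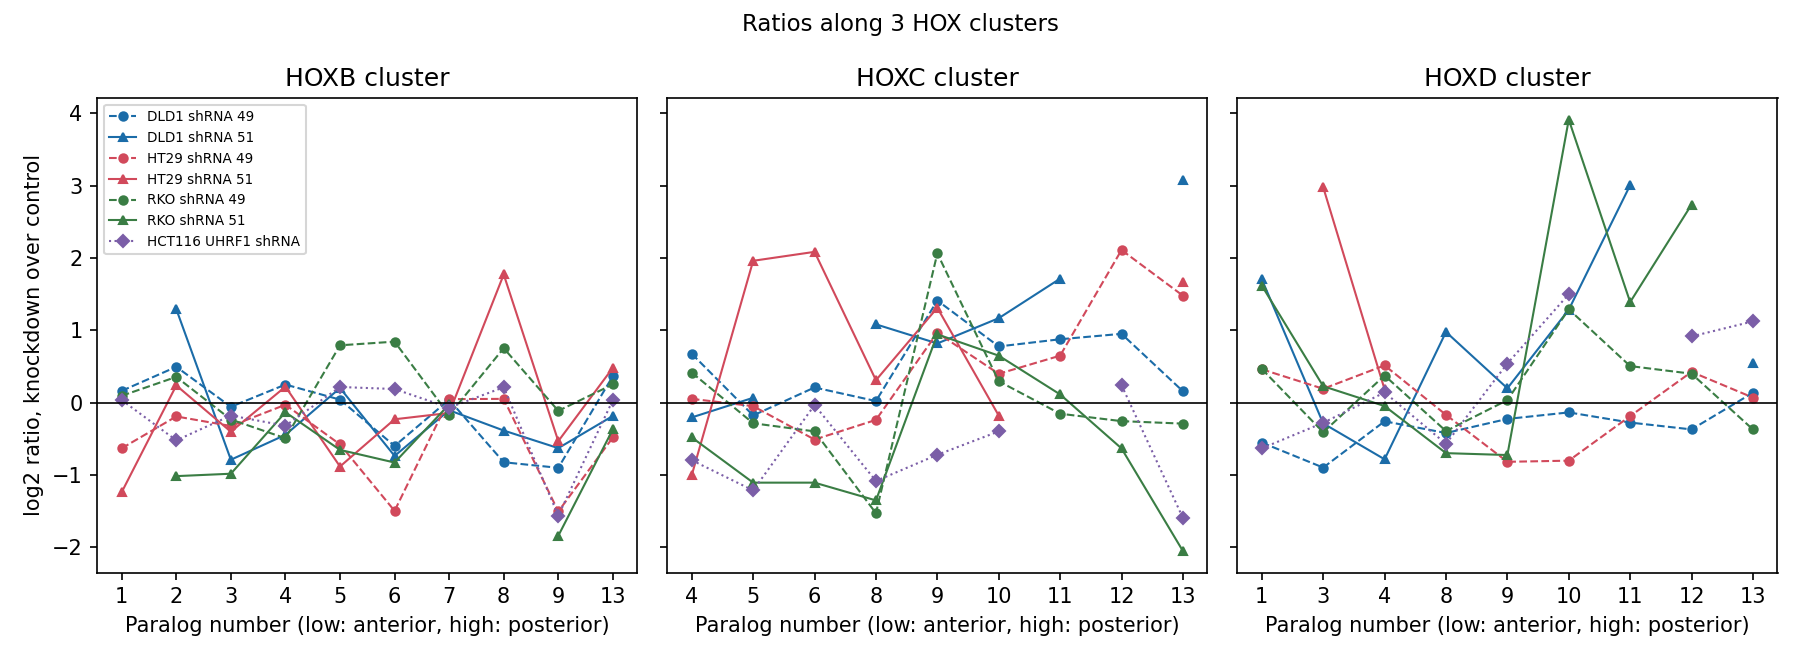
Log2 ratios along the HOXB, HOXC and HOXD clusters (x axis, paralog numbers of the measured genes, evenly spaced) on each array (colour for the line, dashed with circles for shRNA 49, solid with triangles for shRNA 51, dotted with diamonds for UHRF1). In HOXC the DNMT1 arrays meet above 0 at HOXC9 and part towards HOXC13, where DLD1 and HT29 lie above 0 and RKO below.

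The central HOXC genes showed no common direction. HOXC8, expressed in the thoracic region of the mouse embryo, stood at 0.024 and 1.08 in DLD1, -0.24 and 0.31 in HT29 cells, and in RKO at -1.53 and -1.35. The 2 RKO values are ratios of its own and agree between both probes in sign, while all values in DLD1 and HT29 are shared. The RKO mean was -1.44 ± 0.26 (SE, n = 2, adjusted p = 0.225 by limma). HOXC8 had the smallest F test p of the HOX genes for a difference between lines (adjusted p = 0.739, unadjusted 0.00851).

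HOXC5 stood at -0.17 and 0.070 in DLD1, -0.046 and 1.96 in HT29 cells, and in RKO at -0.28 and -1.10, all of them shared ratios (mean 0.071 ± 0.39, SE, n = 6, adjusted p = 0.965 by limma). HOXC6 held 5 values, all shared, from -1.10 to 2.09. HOXC4 held 1 ratio of its own, and its fitted mean was -0.088 ± 0.17 (SE, n = 6).

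RNAs transcribed between and beside the posterior HOXC genes were read by probes of their own. HOXC13-AS, the antisense RNA beside HOXC13, stood at 0.51 and 1.22 in DLD1, 1.82 and 2.20 in HT29 and 0.014 in RKO with shRNA 49, and its mean was 1.21 ± 0.32 (SE, n = 5, adjusted p = 0.282 by limma). HOTAIR, a long noncoding RNA gene between HOXC11 and HOXC12, was chosen after its values were seen. It stood at 1.60 and 3.42 in DLD1, 0.97 and 0.27 in HT29 cells, and in RKO at 0.16 and 0.13 (mean 1.09 ± 0.48, SE, n = 6, adjusted p = 0.454 by limma). In both RNAs the DLD1 and HT29 values lay above those of RKO, as for HOXC13. HOXC13-AS held 2 ratios of its own and HOTAIR 4. The sources used here do not say that the array tells strands apart at such overlapping genes.

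In the HOXB cluster 3 of 9 tested genes lay above 0, with a median of -0.10. HOXB9, a posterior gene of the thoracic skeleton in the mouse, stood at -0.90 and -0.63 in DLD1, -1.50 and -0.53 in HT29 cells, and in RKO at -0.11 and -1.84. All 6 are ratios of its own, and all lay below 0. The mean was -0.92 ± 0.29 (SE, n = 6, adjusted p = 0.324 by limma), which is 1.89-fold below control. It stood at -1.56 on the UHRF1 array.

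HOXB3, an anterior gene of the hindbrain, was read by 3 probes and stood at -0.055 and -0.79 in DLD1, -0.32 and -0.40 in HT29 cells, and in RKO at -0.23 and -0.98. The shRNA 51 value was the lower of the pair in each line. The mean was -0.46 ± 0.15 (SE, n = 6, adjusted p = 0.329 by limma). The single probes crossed 0 once on these arrays, at 0.15 in DLD1 with shRNA 49.

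HOXB6 stood at -0.60 and -0.73 in DLD1, -1.49 and -0.23 in HT29 cells, and in RKO at 0.85 and -0.83. It lay below 0 on 5 of 6 arrays and its 2 probes differed by at most 0.57. The mean was -0.51 ± 0.33 (SE, n = 6, adjusted p = 0.617 by limma), and it was -0.22 without HT29, shRNA 49, and -0.84 without RKO, shRNA 49. HOXB8, which acts in myeloid cells in the mouse, stood at -0.82 and -0.38 in DLD1, 0.055 and 1.77 in HT29, and 0.76 in RKO with shRNA 49, each a ratio of its own. The lines thus lay on both sides of 0, and the fitted mean was 0.38 ± 0.40 (SE, n = 5, adjusted p = 0.774 by limma).

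The other tested HOXB genes had fitted means nearer to 0, and HOXB1, which was not tested, lay between -1.23 and 0.17, all shared ratios. HOXB7 varied least of the 29 genes over the DNMT1 arrays, between -0.17 and 0.051 (SD 0.094, n = 6), although its 2 probes differed by up to 1.17. HOXB13, the most posterior HOXB gene, known from the prostate and the distal colon, lay between -0.48 and 0.48 with a mean of 0.014 ± 0.21 (SE, n = 6). HOXB2, HOXB4 and HOXB5 had means of 0.20, -0.10 and -0.18. In RKO with shRNA 51 all 8 HOXB genes with a value lay below 0, where 52.9% of all genes lay above it. With shRNA 49 4 of these 8, HOXB2, HOXB5, HOXB6 and HOXB13, lay above 0, and HOXB3, HOXB4, HOXB7 and HOXB9 lay below it on both RKO arrays (50.2% of all genes above 0). These signs are those of probe means. In RKO with shRNA 51 the 2 probes of HOXB4, of HOXB7 and of HOXB13 had opposite signs.

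The HOXD cluster held the highest fitted mean of a HOX gene, that of HOXD10, and its high values lay mainly on the shRNA 51 arrays. That rank depends on the fit, since HOXD10 was blank in HT29 with shRNA 51. Its plain mean, 1.11, lay below that of HOXC9, 1.25. HOXD1, HOXD10 and HOXD11 had the 3 widest differences between the shRNAs among the tested HOX genes. Because DNMT1 copies methylation at CpGs, their promoter windows from RefSeq (GRCh38.p14, 250 bases before to 50 after the start, plus strand) are printed with each CpG in capitals, beside HOXD4, the matched gene with the fewest CpGs. HOXD4 ran from -0.78 to 0.52 on the 6 DNMT1 arrays, all shared ratios, around a fitted mean of -4.6e-05. The windows are chr2:176188418-176188717 for HOXD1, chr2:176116528-176116827 for HOXD10, chr2:176107030-176107329 for HOXD11 and chr2:176151300-176151599 for HOXD4.
HOXD1: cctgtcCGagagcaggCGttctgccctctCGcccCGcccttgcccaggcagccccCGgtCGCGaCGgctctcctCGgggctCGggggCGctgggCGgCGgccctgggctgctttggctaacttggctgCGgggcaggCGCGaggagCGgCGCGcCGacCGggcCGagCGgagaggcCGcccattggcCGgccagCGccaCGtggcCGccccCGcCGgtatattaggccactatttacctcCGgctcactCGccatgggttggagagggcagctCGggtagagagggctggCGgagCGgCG
HOXD10: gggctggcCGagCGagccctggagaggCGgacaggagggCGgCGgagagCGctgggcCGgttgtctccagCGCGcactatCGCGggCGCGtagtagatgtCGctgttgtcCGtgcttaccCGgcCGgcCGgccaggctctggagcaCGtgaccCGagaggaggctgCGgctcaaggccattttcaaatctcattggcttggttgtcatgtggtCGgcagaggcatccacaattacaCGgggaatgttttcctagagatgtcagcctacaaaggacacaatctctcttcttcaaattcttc
HOXD11: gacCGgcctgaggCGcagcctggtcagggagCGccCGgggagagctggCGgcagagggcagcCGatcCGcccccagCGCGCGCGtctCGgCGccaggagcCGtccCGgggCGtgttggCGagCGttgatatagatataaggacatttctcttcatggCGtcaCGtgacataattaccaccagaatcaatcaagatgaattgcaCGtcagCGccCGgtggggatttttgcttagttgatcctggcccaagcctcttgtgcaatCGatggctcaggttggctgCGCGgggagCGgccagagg
HOXD4: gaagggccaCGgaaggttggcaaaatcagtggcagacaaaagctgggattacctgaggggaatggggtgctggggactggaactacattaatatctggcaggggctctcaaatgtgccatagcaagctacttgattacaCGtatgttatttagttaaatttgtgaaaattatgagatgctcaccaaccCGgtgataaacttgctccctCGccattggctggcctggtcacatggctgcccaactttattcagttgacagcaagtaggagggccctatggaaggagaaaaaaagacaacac
HOXD1 holds 36 CpGs, HOXD10 holds 23, HOXD11 holds 27 and HOXD4 holds 4. Windows with at least as many make up 12.7%, 35.8%, 28.2% and 75.5% of all 35116 promoter windows of this length. Promoter windows matched 12 of the 29 HOX genes, with 4 to 36 CpGs and a median of 21, against a median of 14 over all windows. HOXD8, with 34 CpGs, had a fitted mean of -0.085. Methylation itself was not measured on these arrays.

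HOXD10, which in the mouse patterns lumbosacral motor neurons and the limb, stood at -0.13 and 1.29 in DLD1, -0.80 in HT29 with shRNA 49, and 1.29 and 3.92 in RKO, and was blank in HT29 with shRNA 51. The RKO values and the DLD1 value with shRNA 51 are ratios of its own, and the values below 0 are shared. The fitted mean was 1.32 ± 0.48 (SE, n = 5, adjusted p = 0.395 by limma). The RKO mean was 2.60 ± 0.33 (SE, n = 2, adjusted p = 0.202 by limma), the smallest within-line p of any HOX gene. This SE comes from the spread shared over the lines and does not measure the gap between the RKO values of 1.29 and 3.92.

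HOXD11, a gene of the forearm and the kidney, stood at -0.27 and 3.01 in DLD1, -0.18 in HT29 with shRNA 49, and 0.51 and 1.39 in RKO. The value of 3.01 is its only ratio of its own. The fitted mean was 1.10 ± 0.32 (SE, n = 5, adjusted p = 0.305 by limma), and the plain mean was 0.89. HOXD1, an anterior gene, stood at -0.55 and 1.71 in DLD1, 0.46 in HT29 with shRNA 49, and 0.47 and 1.62 in RKO (mean 0.91 ± 0.23, SE, n = 5, adjusted p = 0.248 by limma). Its 2 RKO values are ratios of its own. In DLD1 and in RKO all 3 genes were higher with shRNA 51 than with shRNA 49, and the shRNA 51 values did not overlap those of shRNA 49, except HOXD10, where both stood at 1.29.

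HOXD3, which shapes the first neck vertebra in the mouse, stood at -0.90 and -0.28 in DLD1, 0.19 and 2.98 in HT29 cells, and in RKO at -0.41 and 0.23. Its HT29 mean of 1.59 ± 0.46 (SE, n = 2, adjusted p = 0.533 by limma) rests on the shRNA 51 array. Here too the SE does not measure the gap between the HT29 arrays. The remaining tested HOXD genes, HOXD4, HOXD8 and HOXD9, had fitted means of -4.6e-05, -0.085 and -0.32. HOXD12 and HOXD13, at the posterior end, had only shared ratios. HOXD12 lay between -0.37 and 2.74. HOXD13, a gene of the digits, read 0.14 and 0.55 in DLD1, and with shRNA 49 alone 0.072 in HT29 and -0.37 in RKO.

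**Figure D4:**
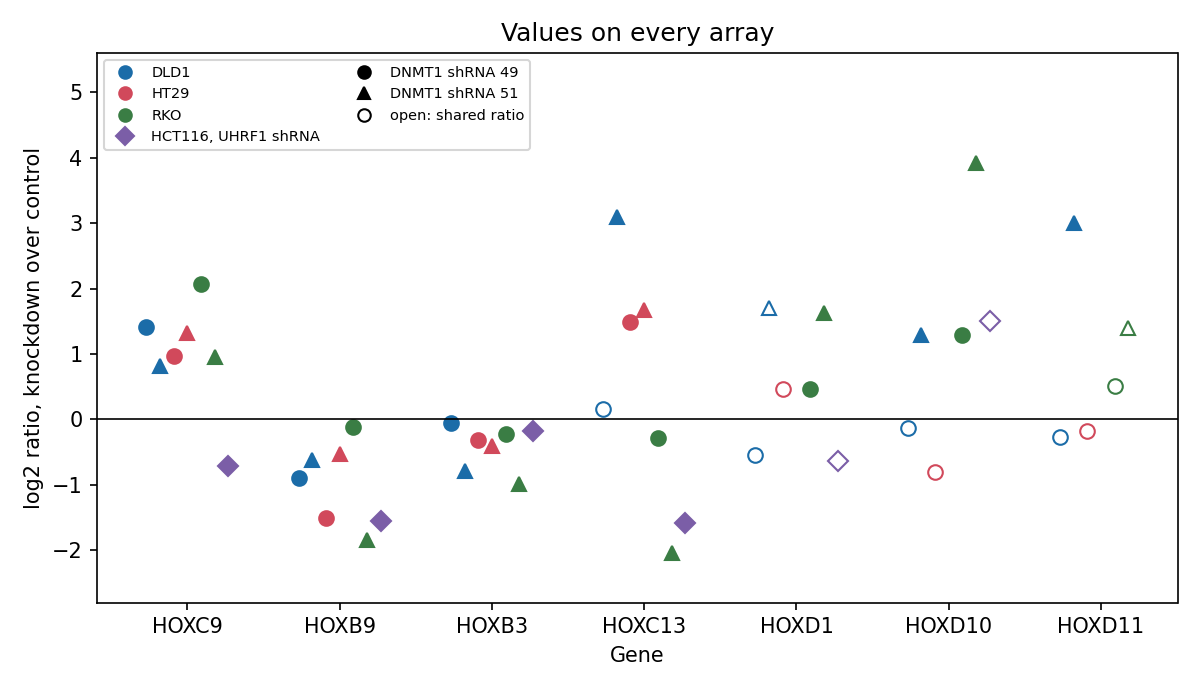
Log2 ratio of 7 HOX genes on every array (colour for the line, circles for shRNA 49, triangles for shRNA 51, diamonds for the UHRF1 array, open for values from shared ratios alone). HOXC9 lies above 0 on the 6 DNMT1 arrays and at -0.72 on the UHRF1 array. HOXB9 and HOXB3 lie below 0 on all 7, and the shRNA 49 values of HOXD1, HOXD10 and HOXD11 include values below 0.

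HOXA2, which patterns the second branchial arch, was read by 1 probe. It stood at -0.55 and 0.012 in DLD1, -0.48 and 0.45 in HT29 cells, and in RKO at 1.14 and 0.45, with a mean of 0.17 ± 0.26 (SE, n = 6, adjusted p = 0.854 by limma). Both RKO values lay above 0 and the other lines overlapped 0.

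By position, 7 of 9 tested posterior genes (paralogs 9 to 13) lay above 0, with a median of 0.68, against 3 of 11 central genes (paralogs 4 to 8), with a median of -0.085, and 4 of 5 anterior genes (paralogs 1 to 3), with a median of 0.20. On single arrays the posterior medians stood at 0.15 and 1.00 in DLD1, 0.24 and 0.48 in HT29 cells, and in RKO at 0.15 and 0.12. The central medians were 0.024 and -0.15, -0.046 and 0.20, and -0.17 and -0.67. Over the clusters together the posterior median was higher than the central median on each DNMT1 array, but the clusters differed. In the all-lines fit the posterior and central medians were 0.69 and -0.0085 in HOXC, 1.10 and -0.042 in HOXD and -0.45 and -0.10 in HOXB, where the posterior one was the lower. These medians rest on few tested genes, 4 and 4 in HOXC, 3 and 2 in HOXD and 2 and 5 in HOXB. The 2 posterior HOXB genes were HOXB9 at -0.92 and HOXB13 at 0.014. With shRNA 49 the posterior HOXD medians were -0.22 in DLD1 and -0.18 in HT29. The medians of all genes lay between -0.018 and 0.052. Posterior and central genes were not measured alike, since 5 of 12 posterior genes had a value in HT29 with shRNA 51, against 10 of 11 central genes.

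Within single lines the question is whether HOX genes differ from control in DLD1, HT29 or RKO. In limma 0 of 25 HOX genes were called in each line, where 0.0227%, 0.017% and 0.0454% of all genes were. At an unadjusted p under 0.05 there were 3 HOX genes in DLD1 (HOXC9, HOXC10 and HOXC11), 2 in HT29 (HOXC9 and HOXD3) and 4 in RKO (HOXC8, HOXC9, HOXD1 and HOXD10). These are 12%, 8% and 16% of the 25 genes, near the 8.80%, 8.03% and 12.5% of all genes. HOXC9 had line means of 1.12, 1.14 and 1.51, each ± 0.33 (SE, n = 2). No HOX gene and no other gene passed the F test between lines or a pairwise difference (0% of all genes for each). In limma 3 HOX genes had an unadjusted F test p under 0.05, and 3, 4 and 2 did for DLD1 against HT29, DLD1 against RKO and HT29 against RKO. Of all genes 6.45% did in the F test, and 5.68%, 6.83% and 6.93% in the pairwise differences.

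Counted by size alone, with no test, 8 of 25 HOX genes with a value were at least 2-fold higher in DLD1 with shRNA 51, where 13.2% of all genes were, and none was 2-fold lower, where 4.55% were (17.7% either way). In HT29 with shRNA 51 it was 6 of 20 higher (11.5% of all genes) and 1 lower (4.68%, and 16.2% either way). In RKO with shRNA 51 it was 4 of 26 higher (13.3%) and 6 lower (8.73%, and 22% either way). With shRNA 49, 1, 2 and 3 of 29 were 2-fold higher in DLD1, HT29 and RKO (2.93%, 3.63% and 5.32%) and 0, 2 and 1 lower (2.04%, 3.63% and 2.47%). Either way this was 4.97%, 7.27% and 7.79% of all genes. The interquartile range of HOX genes was wider than that of all genes on each of the 7 arrays, for example 1.45 against 0.814 in DLD1 and 1.34 against 0.931 in RKO with shRNA 51.

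The contrast of shRNA 51 with shRNA 49 holds the dye orientation too, and the 2 cannot be told apart. In limma 0 of 25 HOX genes were called, where 0% of all genes were. At an unadjusted p under 0.05 there were 4, or 16%, against 11.2% of all genes. HOXD11, HOXD10 and HOXD1 were higher with shRNA 51 by 2.08 ± 0.71, 2.02 ± 0.47 and 1.71 ± 0.45 (SE, adjusted p = 0.439, 0.401 and 0.418 by limma). HOXD3 and HOXB8 followed at 1.34 ± 0.53 and 1.08 ± 0.48. HOXC4 was the 1 gene of these 4 that lay lower with shRNA 51, at -0.94 ± 0.26 (adjusted p = 0.407 by limma), and 5 of its 6 values are shared ratios. HOXB5, HOXB3 and HOXC9 lay lower by smaller differences, at -0.53, -0.52 and -0.46. In all 13 of 25 HOX genes were higher with shRNA 51, or 52%, against 57.3% of all genes, with 1 of 9 in HOXB, 6 of 8 in HOXC and 5 of 7 in HOXD.

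**Figure D5:**
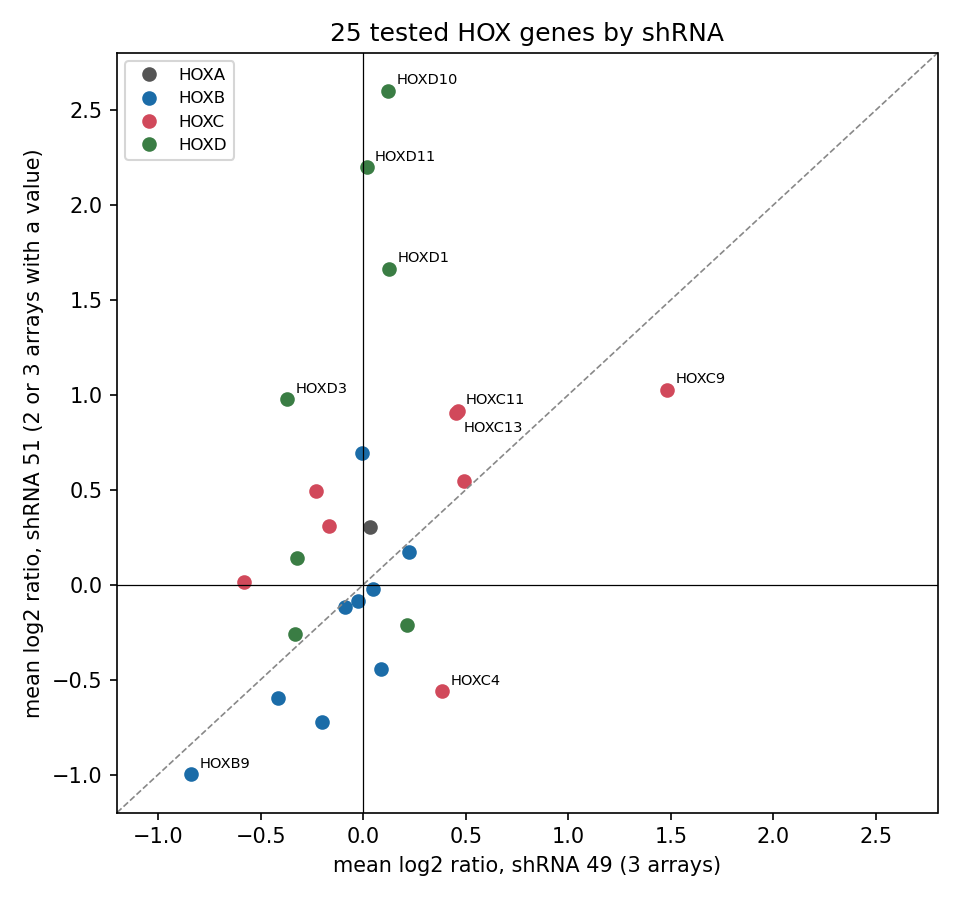
Mean log2 ratio with shRNA 49 (x axis) against shRNA 51 (y axis, over the arrays with a value) for 25 tested HOX genes, coloured by cluster, with a dashed line of equality. HOXD10, HOXD11 and HOXD1 lie near 0 with shRNA 49 and at 2.60, 2.20 and 1.66 with shRNA 51, while HOXC9 lies at 1.48 and 1.03.

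The UHRF1 array asks how the HOX genes stand in HCT116 cells with less UHRF1. It has no replicate, so no test was made. Of 27 HOX genes with a value, 6 were at least 2-fold away from control, or 22.2%, where 6.94% of all genes were (4.62% higher and 2.32% lower). Lower were HOXC13 (-1.59), HOXB9 (-1.56), HOXC5 (-1.21) and HOXC8 (-1.08), and higher were HOXD10 (1.502) and HOXD13 (1.13). The values of HOXC5, HOXD10 and HOXD13 are shared ratios, and with such ratios left out 3 of 10 HOX genes were past 2-fold, where 4.87% of all genes were. At 1.5-fold, with all ratios, it was 11 of 27, where 18.1% of all genes were. Of the 8 HOXC genes with a value, HOXC12 alone lay above 0, at 0.24, also a shared ratio, where 53.8% of all genes lay above 0. These signs rest on the less certain direction of this array. The posterior HOXD genes with a value, HOXD9, HOXD10, HOXD12 and HOXD13, all lay above 0, from 0.54 to 1.502, and all 4 are shared ratios.

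Genes that work with the HOX proteins or control the clusters gave no call either. For this list and those that follow, 0.397% of all tested genes were called in limma and 11.4% had an unadjusted p under 0.05. Of all tested genes 55.2% lay above 0, with a median of 0.034. Of 8 tested HOX cofactors, homeodomain proteins that bind DNA together with HOX proteins, 0 passed in either direction in limma, 1 had an unadjusted p under 0.05, and the median was 0.053. PBX3 stood at 3.39 in RKO with shRNA 51 and ranged from -0.46 to 0.81 elsewhere (mean 0.76 ± 0.42, SE, n = 6, adjusted p = 0.553 by limma). PBX3 held a ratio of its own on 3 of the 6 arrays. MEIS2 lay above 0 on all 6 arrays, from 0.099 to 0.67 (0.39 ± 0.14, SE, n = 6, adjusted p = 0.383 by limma).

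Of 23 tested Polycomb and trithorax genes, which silence the clusters or keep them active, 0 passed in limma and 0 had an unadjusted p under 0.05, with 14 above 0 and a median of 0.049. CBX2, a Polycomb subunit that reads the silencing mark, stood at 0.64 and 0.048 in DLD1, 0.10 and -1.26 in HT29 cells, and in RKO at 0.060 and -2.44 (mean -0.47 ± 0.32, SE, n = 6, adjusted p = 0.630 by limma). CBX2 held a ratio of its own on 2 of these 6 arrays. The next widest mean of this list was that of PHC1, also a Polycomb subunit, at 0.34 ± 0.18 (SE, n = 6, adjusted p = 0.534 by limma). KDM6B and PHC2 were close to it, at 0.31 and 0.30. Of 11 tested CDX and retinoic acid genes, which act upstream of the clusters, 0 passed in limma, 0 had an unadjusted p under 0.05, and the median was 0.13. Among those tested, the retinoic acid synthesis enzymes ALDH1A1 and ALDH1A3 had the widest means, 0.70 ± 0.32 (n = 5) and 0.69 ± 0.31 (n = 6), with adjusted p of 0.493 and 0.469 by limma (SE). ALDH1A1 and ALDH1A3 held ratios of their own on 3 and 4 DNMT1 arrays. RARB, CDX4 and ALDH1A2 had too few values to be tested. RARB stood at 1.90 and 3.02 in DLD1, and with shRNA 49 at 1.11 in HT29 and 0.70 in RKO. CDX4 and ALDH1A2 had values on both sides of 0.

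Of 21 tested genes inside or beside the clusters 0 passed in limma, and 4 had an unadjusted p under 0.05 (11.4% of all genes). Of the 21, 10 lay above 0 (55.2% of all genes), and the median was -0.038. PRAC1, a gene beside HOXB13 known from prostate and colon, stood at 2.84 and 1.92 in DLD1, -0.033 and -0.21 in HT29 cells, and in RKO at 1.53 and 1.75, with a ratio of its own on each array. Both HT29 values lay below 0 and the 4 others above it, and the mean of 1.30 ± 0.43 (SE, n = 6, adjusted p = 0.339 by limma) did not pass. HOXB13 beside it had line means of 0.094, 0.0027 and -0.056.

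Homeobox genes of other families gave 0 calls among 57 tested, with 36 above 0 (55.2% of all genes) and a median of 0.092. In limma 7 of them reached an unadjusted p under 0.05, where 11.4% of all genes did. LHX6 and LHX2, LIM homeobox genes of the forebrain, had the largest means of this list, 2.20 ± 0.44 and 1.32 ± 0.77 (SE, n = 5, adjusted p = 0.178 and 0.587 by limma). LHX2 stood at 4.90 in DLD1 with shRNA 51 and ranged from -0.45 to 1.21 elsewhere, and 2 of its 5 values were ratios of its own. Markers of other cell types, which a pure line should lack, had medians between 0.059 and 0.71 on the DNMT1 arrays over 9 or 10 fibroblast, endothelial and blood genes. The lowest of these values was -2.59 and the highest 5.77, and in limma 0 of 10 tested passed and 2 had an unadjusted p under 0.05. Of 8 markers of colorectal epithelium 4 lay above 0, 0 passed in limma and 1 had an unadjusted p under 0.05. EPCAM and KRT20 had the widest means of these, 1.19 ± 0.62 and -0.64 ± 0.23 (SE, n = 6, adjusted p = 0.533 and 0.369 by limma). EPCAM stood at 1.44 and 4.74 in RKO and ranged from 0.027 to 0.37 in DLD1 and HT29. The part of either marker list in the HOX values was not tested.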

How the data were processed

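The deposited values are 1 log2 ratio per probe and array for 41000 probes on 7 arrays. Limma is named, without its version, per the submitters' processing notes. For the authors' deposited log2 ratios, the sources used here give no background correction, normalization, log base or direction. Array medians lay between -0.024 and 0.020. Without spot intensities here, dim probes could not be filtered, and the number of arrays limits the precision.

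Probes were named through GEO's platform annotation: 29341 had 1 symbol, 33 several and 11626 none listed. Probes of a gene were averaged. Genes with a value on at least 5 of 6 DNMT1 arrays were fitted with limma 3.58.1 in R 4.3.3, which left out 1023 of 18646 genes. The all-lines fit had the shRNA as covariate and the line as random block (correlation 0.165). Line coefficients, their F test and differences, and the contrast of shRNAs were taken from a second model holding a coefficient for each line and a term for the shRNA. All tests were two-sided, with Benjamini-Hochberg adjustment and a threshold of 0.05. The all-lines test and the test within a single line were checked on simulated data. The F test, the differences between lines and the contrast of shRNAs were not. For genes with a blank array the fitted mean is not the plain mean.

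Alternatives were the fit without the shRNA covariate, line averages, quantile normalization, the median of probes, shared ratios left out, a value on all 6 arrays, each array left out and each shRNA alone. HOX members described in full were the 10 with the largest all-lines mean, 3 per line, 5 for the shRNA contrast and 5 for the UHRF1 array; other genes were the 2 with the largest mean of each list. Members and lists were chosen with earlier results of these data known. Figures were drawn with matplotlib 3.10.9.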

Additional observations from a re-analysis of the deposited data

Results flagged for a closer look

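HOXD3 in HT29 with shRNA 51 stood far from the other DNMT1 arrays, at 2.98 where the next highest value was 0.23. The gap was 0.71 of the gene's whole range over 6 arrays, above Dixon's critical value for 6 samples. It was the only such value among the 29 HOX genes checked over the DNMT1 arrays. Chance alone flags about 1 gene in 20, and 1 flag among 29 genes is not above that share. The value comes from 1 probe and is a ratio of its own. HOXC5 and HOXC6 also had their highest values on that array, 1.96 and 2.09, both shared ratios.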

How the results depend on the processing

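The count of 0 HOX genes called over all lines was 0 under 13 of 14 alternatives and 1 (HOXC9) with shared ratios left out. That setting tested 13 of 29 HOX genes and no HOXD gene, so the HOXD values cannot be judged by it. Without the shRNA covariate, that is with no replicate block, the count was 0 and HOXC9 stood at 1.25 (adjusted p = 0.112 by limma). Leaving out 1 array gave 0 in each case. The HOX median of 0.071 lay between -0.063 (without HT29, shRNA 51) and 0.22 (without RKO, shRNA 51), so its sign is not settled. HOXD10, HOXD11 and HOXD1 stood at 0.12, 0.017 and 0.13 with shRNA 49 alone and at 2.60, 2.20 and 1.66 with shRNA 51 alone. HOXD10 was 0.74 without RKO, shRNA 51, and HOXD11 was 0.68 without DLD1, shRNA 51. HOXD10 was 1.13 without the shRNA covariate and 0.79 with line averages, where HOXC9 was 1.25 in both. HOXC13 was 0.12 without DLD1, shRNA 51, and 1.37 without RKO, shRNA 51. The counts within lines, between lines and between the shRNAs were 0 under all alternatives run for them. On the UHRF1 array the count of 6 was 3 with shared ratios left out and 11 at 1.5-fold.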
